A study of Homo sapiens with 5 samples.

Results

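The ephrin, netrin and slit guidance genes were followed in IMR32, an established human neuroblastoma cell line, while doxycycline switched on a short hairpin RNA (shRNA) aimed at MEIS1, a homeobox gene. The members were set by gene name, with no threshold on a measured value, though the group was proposed with earlier results of these data known: 36 genes that encode ephrins, Eph receptors, netrins, netrin receptors, slits and robo receptors. Of these, 35 were matched to the array, with 84 of its 54675 probe sets, among 19775 genes named there. No probe set was matched to EPHB2, which was not analysed here. All 5 samples were IMR32 cells that carried a stable, doxycycline-inducible shRNA described as specific for MEIS1b. There was 1 array of cells without doxycycline (0 h) and 1 array each after 24, 48, 96 and 192 h of doxycycline. Arrays of uninduced cells at later times, or of doxycycline-treated cells without the hairpin, were not analysed here, and whether the line was 1 clone is not given in the sources used here. Each time point had 1 array, so no difference between 2 arrays has a replicate check, and time in culture, doxycycline and the hairpin cannot be told apart.

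These genes encode cues and receptors that steer growing axons and migrating cells, and they are active in the neural crest, from which sympathetic neurons and neuroblastoma arise. Ephrins are membrane-bound ligands that activate Eph receptor tyrosine kinases on the neighbouring cell and can signal back into the cell that carries them. Netrins are secreted proteins that attract axons through DCC and neogenin (NEO1) and repel them when UNC5 receptors take part, and UNC5 receptors are also known as dependence receptors, which can trigger cell death when no netrin is bound. Slits are secreted proteins that repel axons through robo receptors.

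Values are MAS5 signals on the linear scale, which give the brightness of 1 probe set in arbitrary units and were compared only within a probe set. MEIS1 itself read 1052.0 at 0 h and 786.6 to 857.0 on the induced arrays in its brighter probe set, and 597.2 against 443.8 to 560.4 in the other. In the trend described below its limma adjusted p was 0.251. Of 7 matched markers of sympathetic neuroblastoma 6 were bright enough to be tested, TH being the exception. Against that, 1 of 10 endothelial, 1 of 5 Schwann cell and 0 of 4 blood cell markers were. The summed signals of the 10 endothelial markers lay between 65.4 and 104.6 on the 5 arrays. Of the 6 fibroblast markers 4 were tested, and the summed signal of the 6 went from 619.7 at 0 h to 267.4 at 192 h, with PDGFRA past the threshold (fitted change -1.85, limma adjusted p = 2.80e-04); the part of this in the results below was not tested. Of 6 epithelial markers 3 were tested, and their summed signal lay between 77.9 and 104.1. The median signal over all probe sets was lowest at 24 h (16.0, against 17.8 to 19.0 on the others), and the share of probe sets at the lowest possible value was highest there (8.15%, against 5.34% to 6.81%). Poly-A spike-in RNAs, which are added before labelling, read 0.45, 0.61 and 0.25 lower at 48, 96 and 192 h than at 0 h on the log2 scale, and 0.10 higher at 24 h.

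UNC5A, SLIT3, SLIT2 and EFNB3 rose over the course of induction, and none of the guidance genes passed the test below as falling. The 4 rising genes encode a netrin receptor, a pair of slit ligands and an ephrin ligand. In bulk RNA, a change in the number of cells that express a gene and a change in its RNA per cell cannot be told apart. Log2(signal + 4.7) was regressed on time with limma, taking 0, 24, 48, 96 and 192 h as equal steps, with Benjamini-Hochberg adjustment over all 11944 genes tested and a threshold of 0.05. A gene was tested if its brightest probe set had a mean signal of at least 17.9, and that probe set stood for the gene. This left 22 of the 35 guidance genes. Fitted changes are the log2 change of the line from 0 to 192 h, given with their standard error (SE), and they understate the change of dim genes. Of the 22 genes, 4 passed, against 3.47% of all genes tested, which is a description, since the group was proposed with earlier results known. All 4 rose, against 2.02% of all, and 0 fell, against 1.46%. At an unadjusted limma p under 0.05, 12 of the 22 guidance genes passed (54.5%), against 17.0% of all genes tested, and of these 7 had a positive and 5 a negative fitted change. The median fitted change was 0.12 over the 22 guidance genes and 0.003 over all genes tested. Among all genes 241 rose and 174 fell. After arrays were shifted to one median these counts were 187 and 225, and among the guidance genes 3 rose and 1 fell.

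**Figure D1:**
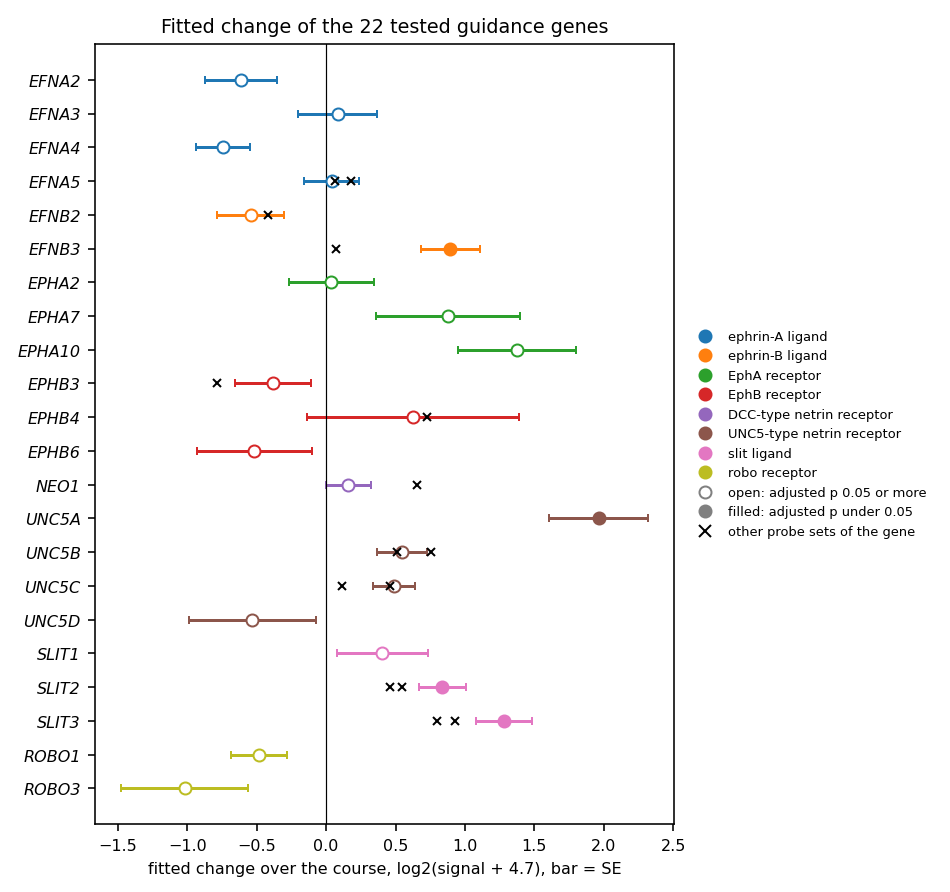
Fitted change over the course (log2(signal + 4.7), x axis) of each of the 22 tested guidance genes (y axis), with bars for 1 SE, colours for the role and crosses for a gene's other probe sets past the signal filter. Filled points are the 4 genes with a limma adjusted p under 0.05, led by UNC5A at 1.96, and both tested robo receptors lie to the left of 0.

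Among the receptors for netrins, UNC5A rose. Its brightest probe set read 51.9, 37.7, 61.1, 116.5 and 178.6 on the 5 arrays in order of time. The 24 h array was thus the lowest, the 48 h array was close to 0 h, and both late arrays stood above all earlier ones. The fitted log2 change was 1.96 ± 0.36 (SE; limma adjusted p = 0.0104), and 192 h was 3.24-fold above 0 h on the scale with the offset. The call was lost without the 192 h array (1.57, limma adjusted p = 0.128). The other UNC5A probe set did not pass the signal filter, with a mean signal of 9.48, and read between 1.8 and 15.4.

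UNC5B and UNC5C, receptors of the same family, read higher than at 0 h on all 4 induced arrays without passing the test. These comparisons share the 1 array at 0 h, and without it the fitted changes were 0.29 for UNC5B and 0.22 for UNC5C. UNC5B read 403.0 at 0 h and then 545.0, 574.8, 501.8 and 677.0. Its fitted change was 0.55 ± 0.18 (limma adjusted p = 0.126), and its further tested probe sets had 0.75 and 0.51. UNC5C read 468.8 at 0 h and then 601.1, 649.8, 696.4 and 667.9. Its fitted change was 0.49 ± 0.15 (limma adjusted p = 0.113), and its further tested probe sets had 0.46 and 0.11. The largest step of UNC5A came between 48 and 96 h (0.88 on the log2 scale). UNC5C took its largest step between 0 and 24 h (0.36), and UNC5B stepped up by 0.43 both there and from 96 to 192 h. UNC5D was dim: it read 26.8 at 0 h and 14.2 to 21.1 later, with a fitted change of -0.53 ± 0.46 (limma adjusted p = 0.644).

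Of the attractive netrin receptors only NEO1 was bright enough to be tested. NEO1 read 327.3 at 0 h and 346.4 to 420.4 on the induced arrays, a fitted change of 0.16 ± 0.16 (limma adjusted p = 0.706). Its other tested probe set read 227.3, 222.1, 313.4, 304.7 and 346.2 over the 5 arrays and gave 0.66 (limma adjusted p = 0.0795 over probe sets). DCC stayed at 17.2 or less in all 3 of its probe sets on all 5 arrays. The netrin ligands were dim as well: NTN1 read at most 15.1 in its 3 probe sets and NTN4 at most 14.7. No netrin gene therefore entered the test, while all 4 UNC5 receptors did.

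Both SLIT3 and SLIT2 rose. SLIT3 read 150.0, 246.1, 216.7, 339.8 and 395.5 in order of time, so that every induced array was above 0 h. The fitted change was 1.28 ± 0.20 (limma adjusted p = 0.00519). The other SLIT3 probe sets gave 0.80 and 0.93 (limma adjusted p = 0.238 and 0.280 over probe sets). The brighter of them was highest at 96 h (166.0, against 113.0 at 192 h). Without the 0 h array the SLIT3 call was lost (1.06, limma adjusted p = 0.0932). Its largest step between neighbouring arrays was the one from 0 to 24 h (0.70 on the log2 scale).

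SLIT2 read 247.8 at 0 h and 241.5 at 24 h, then 325.0, 406.4 and 398.9 at 48, 96 and 192 h. The 96 and 192 h arrays were the highest and the 24 h array the lowest. The fitted change was 0.84 ± 0.17 (limma adjusted p = 0.0185). The other SLIT2 probe sets gave 0.55 and 0.46 (limma adjusted p = 0.228 and 0.291 over probe sets). With its tested probe sets averaged the SLIT2 call was lost (0.62, limma adjusted p = 0.0788). The call was also lost without the 0 h array (limma adjusted p = 0.0736) or without the 96 h array (0.0555). SLIT1 read 30.1 to 43.3, with a fitted change of 0.41 ± 0.33 (limma adjusted p = 0.608).

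**Figure D2:**
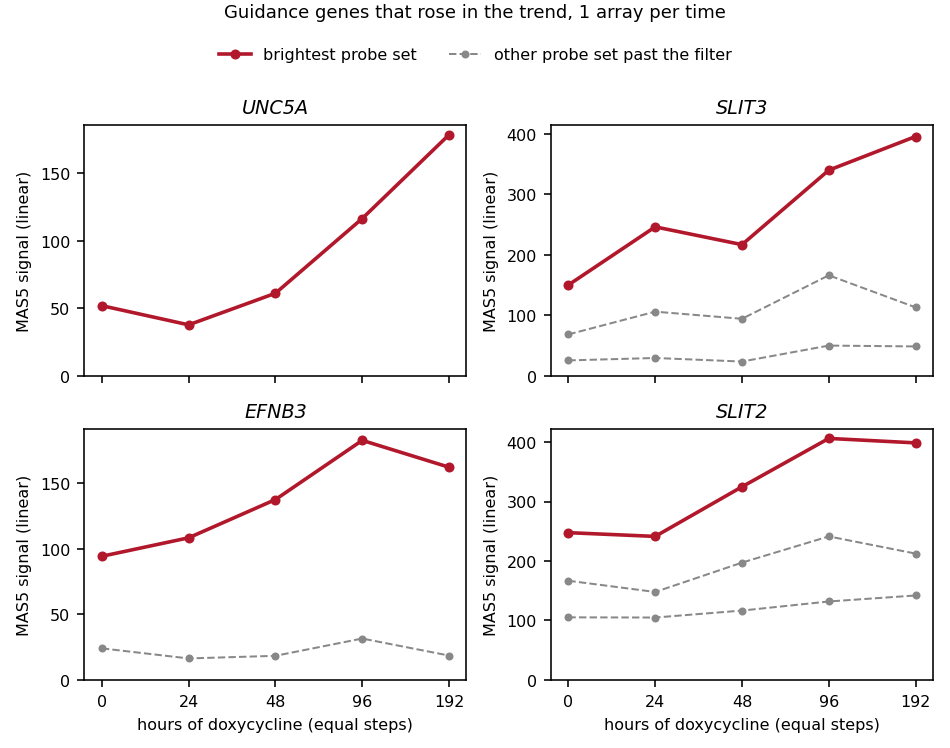
MAS5 signal (linear, y axis from 0) of the 4 guidance genes that rose against hours of doxycycline in equal steps (x axis), with 1 array per time; red is the brightest probe set and grey dashed lines are other probe sets past the filter. UNC5A dips to 37.7 at 24 h before it climbs to 178.6, SLIT3 already stands at 246.1 at 24 h, and EFNB3 and SLIT2 peak at 96 h (182.9 and 406.4).

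The tested robo receptors, ROBO1 and ROBO3, had negative fitted changes without passing the test. ROBO1 read 587.6, 635.3, 607.8 and 613.0 from 0 to 96 h and 391.8 at 192 h. Only the last array stood apart, and the fitted change was -0.48 ± 0.20 (limma adjusted p = 0.245); without the 192 h array it was 0.05. ROBO3 had the same course at a low signal: it read 28.6 to 33.9 from 0 to 96 h and 11.1 at 192 h, a fitted change of -1.02 ± 0.46 (limma adjusted p = 0.285) that was -0.12 without the 192 h array. ROBO2 was at most 11.3 in its 3 probe sets.

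The stretch of 250 bases before the start of transcription is shown for the rising genes that have an entry in the RefSeq promoter table (build GRCh38.p14), and for EFNB2 and ROBO1, whose fitted changes were negative, because these hold the TGACAG motif bound by MEIS-type homeodomains. Of the 36 guidance genes, 31 matched that table, with 42 promoters. TGACAG, searched on both strands, was in the 250 bases of 3 of these 42 promoters (7.14%), those of EFNB2, NTN4 and ROBO1, against 13.0% of all 35116 promoters. Of the 8 tested guidance genes with a negative fitted change, only EFNB2 and ROBO1 were among these matches. Capitals mark TGACAG or its reverse complement, and the promoters printed without capitals hold neither. The regions are chr5:176810309-176810558 (plus strand) for UNC5A, chr5:169301140-169301389 (minus strand) for SLIT3, chr4:20251655-20251904 (plus strand) for SLIT2, chr13:106535663-106535912 (minus strand) for EFNB2 and chr3:79767999-79768248 (minus strand) for 1 of the ROBO1 promoters.
UNC5A: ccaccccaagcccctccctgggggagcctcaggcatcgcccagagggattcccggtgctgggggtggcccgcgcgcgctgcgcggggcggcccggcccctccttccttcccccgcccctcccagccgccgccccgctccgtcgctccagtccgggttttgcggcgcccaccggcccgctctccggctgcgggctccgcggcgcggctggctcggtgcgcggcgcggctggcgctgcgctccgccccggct
SLIT3: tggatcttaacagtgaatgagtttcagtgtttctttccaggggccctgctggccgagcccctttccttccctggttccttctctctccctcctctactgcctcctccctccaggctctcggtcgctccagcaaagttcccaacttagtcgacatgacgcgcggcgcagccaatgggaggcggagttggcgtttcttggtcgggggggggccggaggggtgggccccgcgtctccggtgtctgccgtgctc
SLIT2: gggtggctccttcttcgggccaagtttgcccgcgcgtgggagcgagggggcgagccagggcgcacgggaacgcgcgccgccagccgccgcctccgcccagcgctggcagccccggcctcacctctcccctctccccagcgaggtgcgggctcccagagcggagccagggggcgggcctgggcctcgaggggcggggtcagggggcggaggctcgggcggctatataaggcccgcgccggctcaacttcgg
EFNB2: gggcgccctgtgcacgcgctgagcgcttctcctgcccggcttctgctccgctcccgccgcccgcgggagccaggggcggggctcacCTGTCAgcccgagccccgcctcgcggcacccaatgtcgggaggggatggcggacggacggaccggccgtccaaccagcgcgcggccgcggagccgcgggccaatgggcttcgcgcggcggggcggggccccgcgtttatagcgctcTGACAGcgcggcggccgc
ROBO1: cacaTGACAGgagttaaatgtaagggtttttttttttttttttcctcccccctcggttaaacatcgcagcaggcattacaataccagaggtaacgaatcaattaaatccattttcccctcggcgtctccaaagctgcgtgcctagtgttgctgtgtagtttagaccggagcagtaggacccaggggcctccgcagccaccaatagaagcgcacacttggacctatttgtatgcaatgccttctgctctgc

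In EFNB2 the matches began 164 and 18 bases before the start, on opposite strands, and in ROBO1 the match began 246 bases before it. The UNC5A, SLIT2 and EFNB2 stretches were rich in CG dinucleotides, with 36, 30 and 40, against 16 in SLIT3, 9 in ROBO1 and a median of 11 over all promoters. Their GC content was 81.2%, 77.2% and 78.4%, that of SLIT3 62.8% and that of ROBO1 48.0%, against a median of 58.0%. None of the 3 rising genes shown held a match to this motif in the window, which is the common case, since 13.0% of all promoters held one. Whether the motif goes with the direction of change was not tested. SLIT3 differed from UNC5A and SLIT2 in base composition.

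Of the ephrin ligands, EFNB3 rose. It read 94.4, 108.5, 137.7, 182.9 and 162.4 in order of time. Each array up to 96 h was above the one before, and all induced arrays were above 0 h. The fitted change was 0.89 ± 0.21 (limma adjusted p = 0.0400). This call lay closest to the threshold of the 4, and it was lost without the 0 h (0.264), 24 h (0.0846), 48 h (0.0511) or 96 h array (limma adjusted p = 0.109). The other EFNB3 probe set read 16.4 to 31.6, and its fitted change was 0.07. With both probe sets averaged the EFNB3 call was lost (0.48, limma adjusted p = 0.428).

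EFNB2, the other ephrin-B ligand tested, had its highest signal at 0 h: 345.9, then 201.8, 287.7, 233.6 and 199.1. All 4 induced arrays were lower, with a fitted change of -0.54 ± 0.24 (limma adjusted p = 0.279) and of -0.42 in its second probe set. Without the 24 h array the EFNB2 fitted change was -0.79 (limma adjusted p = 0.0329), and without the 0 h array it was -0.14 (0.910). EFNB1 was just below the signal filter, with a mean of 17.4, and read 35.0 at 24 h against 9.3 to 17.0 on the other arrays.

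Among the GPI-anchored ephrin-A ligands, EFNA4 read 180.9, 170.4, 149.3, 142.3 and 102.0 over the 5 arrays, lower at every step. Its fitted change was -0.74 ± 0.19, with a limma adjusted p of 0.0607. It passed when array medians were set equal (-0.83, limma adjusted p = 0.0462) and when probe sets of a gene were averaged before the test (0.0469). EFNA4 has only 1 probe set, so averaging left its fitted change at -0.74. Only its SE (0.17) and the adjustment over all genes moved there. Without the 192 h array the EFNA4 fitted change was -0.48 (limma adjusted p = 0.377). EFNA2 read 135.6 at 0 h and then 94.2, 123.8, 79.2 and 85.0, all below 0 h, with a fitted change of -0.61 ± 0.26 (limma adjusted p = 0.255). EFNA3 (48.1 to 56.9) and EFNA5 (150.1 to 185.9) had narrow ranges and fitted changes of 0.08 and 0.04. The other tested EFNA5 probe sets gave 0.18 and 0.07. EFNA1 read between 1.2 and 21.1 and was not tested.

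No Eph receptor passed the test in either direction. Only 3 of 9 EphA genes and 3 of the 4 matched EphB genes were bright enough to be tested. EPHA10, which is known as a receptor without kinase activity, read 11.4, 13.9, 18.5, 25.6 and 36.7 over the 5 arrays, higher at every step. Its fitted change was 1.37 ± 0.43 (limma adjusted p = 0.111), and the 192 h array was 2.57-fold above 0 h on the scale with the offset. It passed the signal filter through its later arrays, since the 0 and 24 h signals lay below 17.9, and its other probe sets, at most 13.0 and 18.2, did not pass. EPHA7 read 20.1, 9.7, 27.2, 20.0 and 35.8, with a fitted change of 0.88 ± 0.52 (limma adjusted p = 0.436). EPHA2 lay between 42.0 and 60.4, with a fitted change of 0.04.

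The EphB receptors showed no shared course. EPHB3 read 82.7, 66.4, 76.8, 77.4 and 53.7, with a fitted change of -0.38 ± 0.27 (limma adjusted p = 0.539) and of -0.78 in its other probe set. EPHB4, an ephrin-B2 receptor known from blood vessels, read 39.3, 5.9, 19.5, 52.9 and 27.8 in order of time. Its low value at 24 h coincided with the lowest array median, and the part of the array in it was not tested. Its second probe set read 5.4 at 0 h and 13.7 to 31.0 later, so the pair differed in course and no direction is given for EPHB4. EPHB6, which lacks kinase activity, read 22.7 to 41.0, with a fitted change of -0.52 ± 0.41 (limma adjusted p = 0.601).

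Besides EPHB2, 13 guidance genes were not tested because no probe set of theirs reached a mean signal of 17.9. They were EFNA1, EFNB1, EPHA1, EPHA3, EPHA4, EPHA5, EPHA6, EPHA8, EPHB1, NTN1, NTN4, DCC and ROBO2. EFNB1 (17.4), EPHA8 (16.7) and EPHA4 (13.4) had the highest mean signals of them, and UNC5D (19.1), EPHA10 (21.2) and EPHA7 (22.6) lay just inside the filter. EPHA3 was at the lowest possible value in 6 of 15 readings. Low MAS5 signals are noisy, and detection calls were not analysed here, so a dim probe set does not show that a gene was silent.

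Of 37 guidance probe sets that passed the filter, 27 had a positive and 10 a negative fitted change. In all 10 of the genes with more than 1 such probe set, the fitted changes had the same sign, EPHB4 included, whose pair differed in course. When the limma trend was fitted over all 22487 probe sets past the filter, 3 guidance probe sets rose, against 1.22% of all, and 0 fell, against 0.836%. They were the brightest ones of UNC5A, SLIT3 and SLIT2. For the EFNB3 probe set the limma adjusted p was 0.0544 there.

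The course was not the same at all times. At 24 h SLIT3 was the 1 tested guidance gene at least 1.5-fold above 0 h on the scale with the offset (2.80% of all genes tested were), and 3 were at least 1.5-fold below, namely EFNB2, EPHA7 and EPHB4 (4.24% of all). EPHB4 is counted by its brightest probe set, while its second one read above 0 h at 24 and 48 h. At 48 h 0 were above (4.19% of all) and EPHB4 and UNC5D were below (3.78%). At 96 h 5 were above, namely EFNB3, EPHA10, UNC5A, SLIT2 and SLIT3 (7.47% of all), and EFNA2 and EPHB6 were below (5.67%). At 192 h the 7 genes above were these 5 with EPHA7 and UNC5B (6.95% of all). The 6 genes below at 192 h were EFNA2, EFNA4, EFNB2, EPHB6, UNC5D and ROBO3 (6.41%). At the last time, then, both higher and lower guidance genes were at shares above those of all genes, and these ratios of single arrays have no test. EPHA10 and UNC5D read below 17.9 on 2 arrays each and passed the signal filter through arrays where they read higher. EPHA7, EPHB4 and ROBO3 read below it on 1 array each. The filter thus favours a change in such dim genes, and the counts that hold them are a description only. The median log2 ratio of the 22 genes to 0 h was -0.15, 0.09, 0.08 and -0.05 at 24, 48, 96 and 192 h, against -0.002, 0.009, 0.02 and -0.009 over all genes tested.

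**Figure D3:**
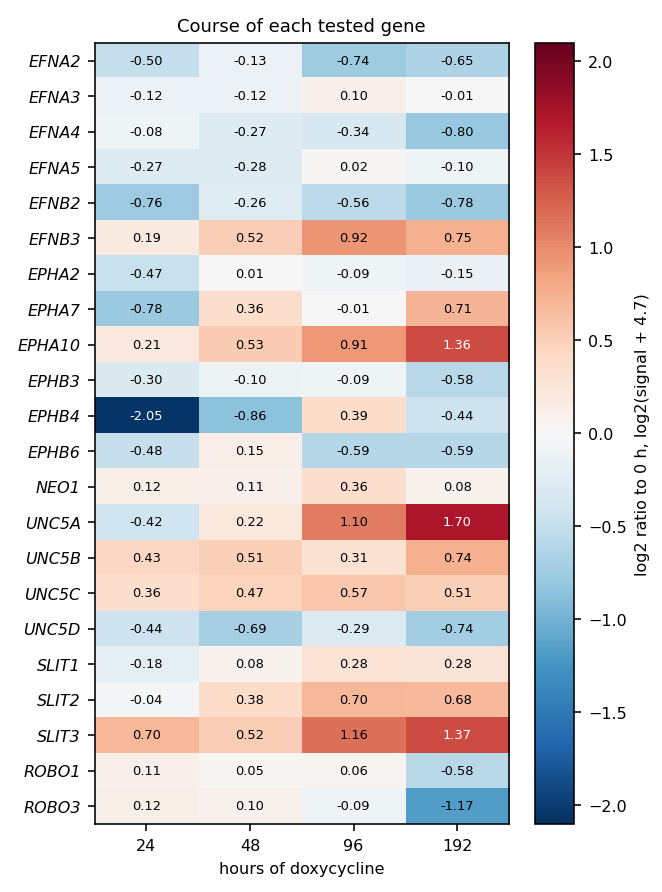
Log2 ratio to 0 h on the log2(signal + 4.7) scale of each tested guidance gene (rows) at 24, 48, 96 and 192 h of doxycycline (columns), 1 array each; red is higher and blue lower than at 0 h. UNC5A goes from -0.42 at 24 h to 1.70 at 192 h, while ROBO1 and ROBO3 leave the 0 h level at 192 h (-0.58 and -1.17).

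The other genes of these pathways were taken from a written list of proteins that bind the guidance receptors or ligands outside the cell, and a list of their effectors inside it. Of 11 tested extracellular and membrane partners 0 rose and 2 fell, against 2.02% and 1.46% of all genes tested, with a median fitted change of 0.06. The count that fell was 0 without the 0 h array or without the signal filter. DRAXIN, a secreted antagonist of netrin, fell: it read 462.4 at 0 h and then 329.6, 374.6, 342.7 and 213.4, a fitted change of -0.86 ± 0.21 (limma adjusted p = 0.0464). FLRT3, a membrane protein that binds UNC5 receptors, fell as well: it read 811.3, 596.6, 656.7, 421.4 and 482.6 (-0.79 ± 0.19, limma adjusted p = 0.0407). All 4 induced arrays were below 0 h for both genes. FLRT2, a relative of FLRT3, had a fitted change of -0.81 (limma adjusted p = 0.0583), and RGMA, a ligand of neogenin, -0.97 (0.0830). Of the 11 partners 6 had a positive fitted change, among them LRRC4 with 0.86 (limma adjusted p = 0.350). RGMB, a relative of RGMA, was another of these 6, with 0.41 (limma adjusted p = 0.197).

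Of 40 tested cytoplasmic effectors 2 rose and 0 fell, against 2.02% and 1.46% of all genes tested, and the median fitted change was -0.08. The count that rose was 0 without the 192 h array, with the spike-in covariate or without the signal filter. Both that rose are exchange factors that activate Rac, and such factors were not tested as a group. Other exchange factors of the list went both ways, such as TRIO (0.51) and VAV2 (0.47) against VAV3 (-0.79) and DOCK1 (-0.44), none past the threshold. KALRN, which takes part in Eph signalling in dendritic spines, read 102.4, 115.0, 130.4, 203.9 and 199.9 over the 5 arrays (1.07 ± 0.21, limma adjusted p = 0.0151). TIAM1, which binds Eph receptors and ephrins, read 521.4, 518.4, 569.2, 704.4 and 831.1 (0.71 ± 0.15, limma adjusted p = 0.0193). In both, the 96 and 192 h arrays stood above the earlier ones. With negative fitted changes that did not pass, VAV3 had -0.79 (limma adjusted p = 0.0631), the motor protein gene MYO10, which carries DCC, -0.61 (0.0599), and SIPA1L1 -1.37 (0.105). At an unadjusted limma p under 0.05, 12 of the 40 effectors and 5 of the 11 partners passed, against 17.0% of all genes tested.

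**Figure D4:**
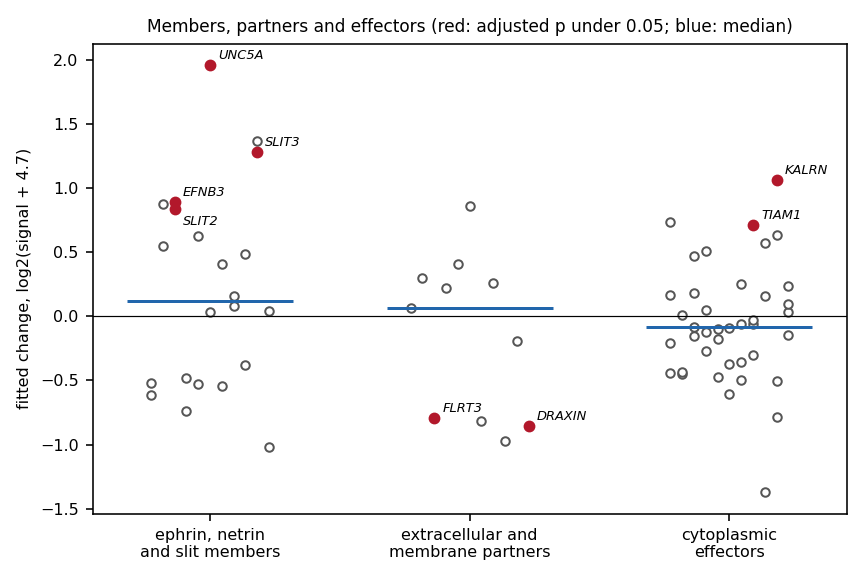
Fitted change over the course (log2(signal + 4.7), y axis) of the tested guidance genes, their extracellular and membrane partners and their cytoplasmic effectors (x axis, 1 point per gene, spread sideways for legibility); red points have a limma adjusted p under 0.05 and blue lines are medians of 0.12, 0.06 and -0.08. The 4 called guidance genes lie above 0, the 2 called partners below and the 2 called effectors above.

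Semaphorins, plexins and neuropilins, the other large family of axon guidance cues and receptors, had 31 genes on the array, of which 21 were tested. Of these 1 rose, NRP1, and 0 fell at the same threshold, against 2.02% and 1.46% of all genes tested. NRP1 read 61.1 at 0 h and 960.3 at 192 h. Its fitted change of 3.80 (limma adjusted p = 3.79e-05) was larger than that of UNC5A (1.96). The median fitted change of the 21 genes was 0.28, and 9 passed an unadjusted limma p of 0.05, against 17.0% of all genes tested. So the ephrin, netrin and slit genes had 4 calls of 22 and this family 1 of 21, a difference that was not tested. At the unadjusted threshold 12 of the 22 and 9 of the 21 passed, and the median fitted changes were 0.12 and 0.28. Positive fitted changes were found in 14 of the 22 and 16 of the 21.

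How far the 4 rises held was counted over 13 other settings, which changed the offset, scaling, time axis, filter, probe set choice or covariate, or left out 1 array. The fitted change stayed positive in all 13 for UNC5A, SLIT3, SLIT2 and EFNB3. UNC5A and SLIT3 passed the threshold in 10 of the 13, SLIT2 in 7 and EFNB3 in 4. When the level of the poly-A spike-ins was added to the fit only SLIT3 passed (1.47, limma adjusted p = 0.0173), and UNC5A had 1.93 (0.0678). With no filter on the mean signal, where 19775 genes were tested, 0 guidance genes passed by limma and 21 genes did in all.

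**Figure D5:**
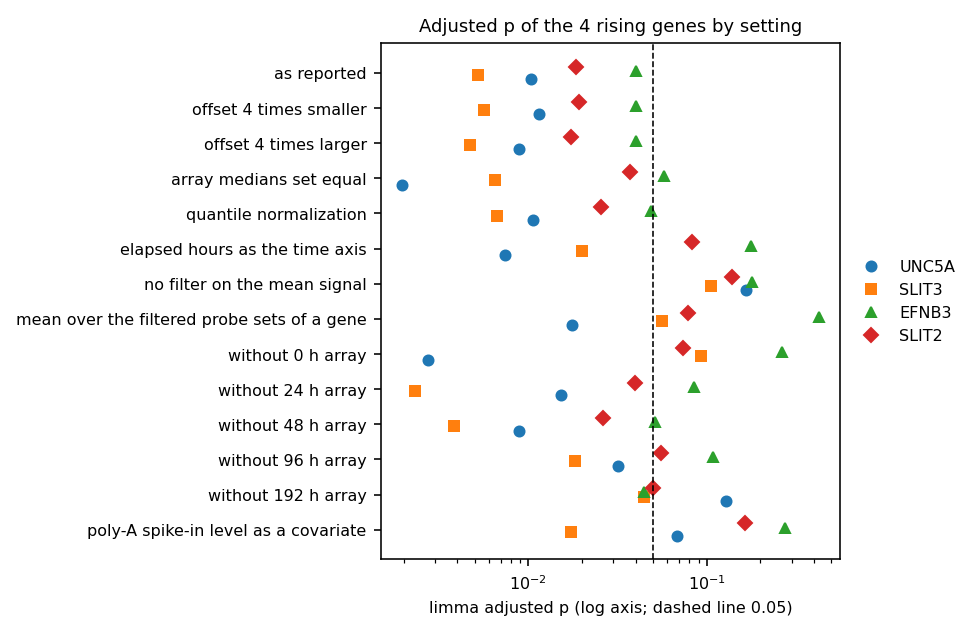
Limma adjusted p (x axis, log scale, dashed line at 0.05) of the 4 guidance genes that rose, under the setting reported and 13 alternatives (y axis). UNC5A and SLIT3 lie left of the line in 10 of the 13 alternatives and EFNB3 in 4.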

How the data were processed

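Total RNA of 5 IMR32 samples was measured on Affymetrix Human Genome U133 Plus 2.0 arrays. The authors' deposited values are log2 MAS5 signals; MAS5 and GCOS are named, without versions, per the submitters' processing notes. The log scale, the lowest signal of 1 and the array scaling (a mean of 100.02 to 100.03 on each array after trimming both tails) were read from the values. No genome build is given for them in the sources used here.

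Signals were returned to the linear scale, 4.7 (the median of the arrays' 25th percentiles) was added, and log2 was taken. Tests left out 62 control probe sets. Of the rest, 41091 carry a single gene name in GEO's platform annotation, and the RefSeq table (GRCh38.p14) held the gene identifiers of 41043. Trends were fitted with limma 3.58.1 in R 4.3.3 (eBayes, trend=TRUE; degrees of freedom 3 residual, 9.07 prior) on all 11944 genes, two-sided, and the fit was tested on simulated data. Its p-values reflect only how 5 unreplicated arrays scatter about a line, which may be technical, and the number of arrays limits the precision. Named in full are guidance genes past the threshold, with an absolute fitted change of at least 1, or with an unadjusted p under 0.05. The members and gene lists were chosen with earlier results of these data known.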

Additional observations from a re-analysis of the deposited data

How the results depend on the processing

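The count of guidance genes that rose was 4 with the offset 4 times smaller or larger and with quantile normalization. It was 3 with array medians set equal, 2 with elapsed hours as the time axis, 1 with probe sets averaged, 1 with the spike-in covariate and 0 without the signal filter. Over all genes tested, the counts that rose in these settings were, in the same order, 187, 162, 190, 118 and 16, against 241 as reported. The count of guidance genes that fell was 1 with array medians set equal and 1 with probe sets averaged (225 and 139 of all genes tested). It was 0 in the other settings that kept all arrays. Leaving out 1 array in turn, 1 to 3 rose and 0 to 1 fell (EFNB2, without the 24 h array), and 0 to 3 guidance probe sets rose. The median fitted change lay between -0.01 and 0.27 in all settings. Partners that fell numbered 4 with medians set equal, 1 with quantile normalization, 1 with probe sets averaged, 0 without the filter and 0 to 3 with 1 array left out. Effectors that rose numbered 1 with medians set equal, 1 with elapsed hours, 1 with probe sets averaged, 0 without the filter, 0 with the spike-in covariate and 0 to 2 with 1 array left out. Effectors that fell numbered 1 with medians set equal and 1 with quantile normalization. Without the filter more genes were tested and their spread was estimated anew, while fitted changes stayed as they were. The cause of the other differences was not tested. No paired analysis was possible because each time point has 1 array. Dim probe sets, below a mean signal of 17.9, were not tested.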
